A study of Mus musculus with 8 samples.

Results

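Small nuclear and nucleolar RNA genes were followed in T cells from grafts that were tolerated or rejected. The genes were taken by name. A probe set, the group of array probes summarised into a value for a transcript, was a member when all its gene symbols began with Snora, Snord, Scarna, Rnu, Rny, Rmrp, Rpph1 or Rn7sk. This gave 102 of 35556 probe sets, which stand for 71 of the 20101 genes with a listed symbol. Box H/ACA RNAs (Snora) made up 26 genes, box C/D RNAs (Snord) 31 and the Rnu symbols 7. The other 7 were Rmrp, Rn7sk, Rny1, Rny3, Scarna8, Scarna13 and Scarna17. No gene beginning with Rpph1 was among them, and the imprinted box C/D families Snord113 to Snord116 gave 0 members.

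The series holds 8 arrays of CD3+ T cells isolated from the grafts at day 30. All hosts were wildtype CD1 mice, an outbred stock, that carried tissue derived from human embryonic stem cells. The 4 tolerant samples came from mice tolerised by injected antibodies to CD4, CD8 and CD40L, and the 4 rejecting samples from mice left untreated. Whether every array had a mouse of its own is not in the labels, so the p-values speak of the spread among these 8 arrays, part of which may be technical. In RNA from a whole cell sample, fewer cells of a type and less RNA per cell cannot be told apart. No sequence of a member RNA was analysed here.

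Box C/D RNAs guide ribose methylation and box H/ACA RNAs guide pseudouridine formation, mostly in ribosomal RNA, each by base pairing with its target inside a particle of core proteins. In mammals most are cut from the introns of other genes, often genes for ribosomal proteins or for transcripts that code for no protein. Rnu genes encode the U RNAs: U1, U2, U5 and U12 work in the spliceosome, U3 is a box C/D RNA of ribosomal RNA cleavage that carries an Rnu symbol, and U7 serves in the cutting of histone messenger ends. Rmrp is the RNA of the RNase MRP enzyme, Rn7sk holds the elongation factor P-TEFb in an inactive complex, and Y RNAs bind the Ro60 protein. Proliferating T cells make ribosomes at a high rate, for which many of these RNAs are needed.

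By overall signal the arrays formed 2 sets, numbers 1 and 2 and numbers 3 and 4, each with both groups in it, and the sets are given apart. A gene was counted as above background on an array when its value exceeded the 99th percentile, on that array, of 1182 probe sets of odorant and pheromone receptor genes, a line that lay between 0.99 and 1.35 on the log2 scale. Of all genes, 16.4% and 16.0% lay above the line on tolerant arrays 3 and 4, against 14.4% and 9.37% on rejecting arrays 3 and 4. On arrays 1 and 2 the shares were 2.84% and 2.63% in tolerant samples, against 4.95% and 5.67% in rejecting samples. Among 10 measured T cell markers, Cd3e, Cd3g and Cd5 were above the line on at least 2 of the 4 arrays numbered 3 and 4, while Cd3d was below it on all 4. Rejecting array 3 stands apart for the small RNAs, so the main counts and many of the differences on arrays 3 and 4 are also given without it.

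Small RNA genes were above the line more often than genes in general on every array. The shares of the 71 genes were 23.9% and 28.2% on tolerant arrays 3 and 4, against 39.4% and 22.5% on rejecting arrays 3 and 4. On arrays 1 and 2 they were 4.23% and 5.63% in tolerant samples, against 12.7% and 8.45% in rejecting samples. At least 1 array put 31 of the 71 above the line (25.7% of all genes), and 40 were above it on none. All 4 arrays numbered 3 and 4 had 15 of them above (6.73% of all genes): 4 box H/ACA, 5 box C/D, 3 Rnu and 3 other genes. On all 8 arrays the count was 2, Snord49b and Rn7sk (1.10% of all genes). These counts describe signal and carry no test.

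**Figure D1:**
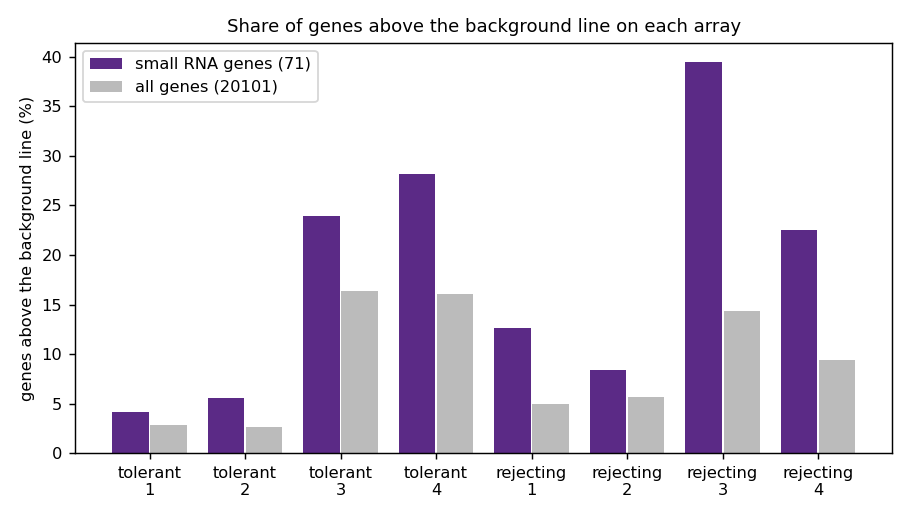
Share of the 71 small RNA genes (purple bars) and of all 20101 genes (grey bars) above the background line on each of the 8 arrays, in percent. The small RNA bar exceeds the grey bar on every array and is highest on rejecting array 3, at 39.4%.

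The difference between the array sets was wide for some of these RNAs. Averaged over both groups, 11 of 71 genes were higher by at least 1 (log2) on arrays 3 and 4 than on arrays 1 and 2, against 1.48% of all genes. All values of arrays 3 and 4 lay above all values of arrays 1 and 2 for 18 of the 71 (9.06% of all genes), and all lay below for 10 (5.98% of all genes). The 11 were Snord49b, Snord57, Snord73b, Snord82, Snora52, Snora7a, Rnu2-10, the U3b genes, Rmrp, Rn7sk and Rny3. Without rejecting array 3 the count was 9. The sets were recognised from measured values, so this is a description with no test.

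Over all 8 arrays, no small RNA gene passed limma's test with an adjusted p under 0.05 (0 of 71, with 0% of all genes called). Of the 71, 2 had an unadjusted p under 0.05, Snora21 and Snora75, against 2.96% of all genes, and both were below the line on every array. Values were lower in tolerant samples for 51 of the 71 (50.2% of all genes), with a median difference, tolerant minus rejecting, of -0.07 on the log2 scale. Snora21, in the ribosomal protein gene Rpl23, was the only member whose groups did not overlap over 8 arrays (1.14% of all genes in this direction), at 0.29, 0.45, 0.27 and 0.37 in tolerant samples, against 0.65, 0.50, 0.54 and 1.07 in rejecting samples. With the array set as a block 6 genes had an unadjusted p under 0.05 (5.50% of all genes), and the lowest adjusted p was 0.812.

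On arrays 3 and 4, where most signal lay, small RNA genes were mostly lower in tolerant samples, and none passed the test. The comparison of 2 with 2 arrays called 0 of the 71, against 0.0846% of all genes, and 6 had an unadjusted p under 0.05 (7.03% of all genes): Snora52, Snora21, Snord118, Rnu12, Rmrp and Scarna17. Values were lower for 59 of the 71 (52.3% of all genes), with a median difference of -0.13, against -0.01 over all genes. These counts include 41 genes below the line on all 4 of these arrays. Among the 20 above it on at least 2 of them, 16 were lower. Among the 15 above it on all 4, 11 were, against 45.9% of all genes of that kind. By class, 23 of 26 box H/ACA, 27 of 31 box C/D, 7 of 7 Rnu and 2 of 7 other genes were lower. Groups did not overlap, with tolerant lower, for 21 (20.5% of all genes), and, with tolerant higher, for Snora41 and Scarna17 (19.3%). A difference of -1 or below was seen for Snora52, Rnu2-10, Snord49b and the U3b genes (0.174% of all genes), and none of the 71 reached 1 (0.552%).

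The direction of these values rested in part on rejecting array 3. It was the highest of the 8 arrays for 28 of the 71 genes, against 11.5% of all genes. It exceeded rejecting array 4 for 48 of the 71 (52.1% of all genes). Among the 15 small RNA genes above the line on all 4 of arrays 3 and 4, it did so for 14, against 45.0% of the 1352 genes of that kind. Without it, 42 of the 71 were lower in tolerant samples, against 49.3% of all genes. Leaving out any other of these arrays gave between 50 and 60. By class, 17 of 26 box H/ACA, 18 of 31 box C/D, 5 of 7 Rnu and 2 of 7 other genes were lower without it. Groups did not overlap, with tolerant lower, for 31 of the 71 when rejecting array 4 stood alone, a looser condition that 35.5% of all genes met. A difference of -1 or below was then left for 1 gene, Snora52, against 0.294% of all genes.

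**Figure D2:**
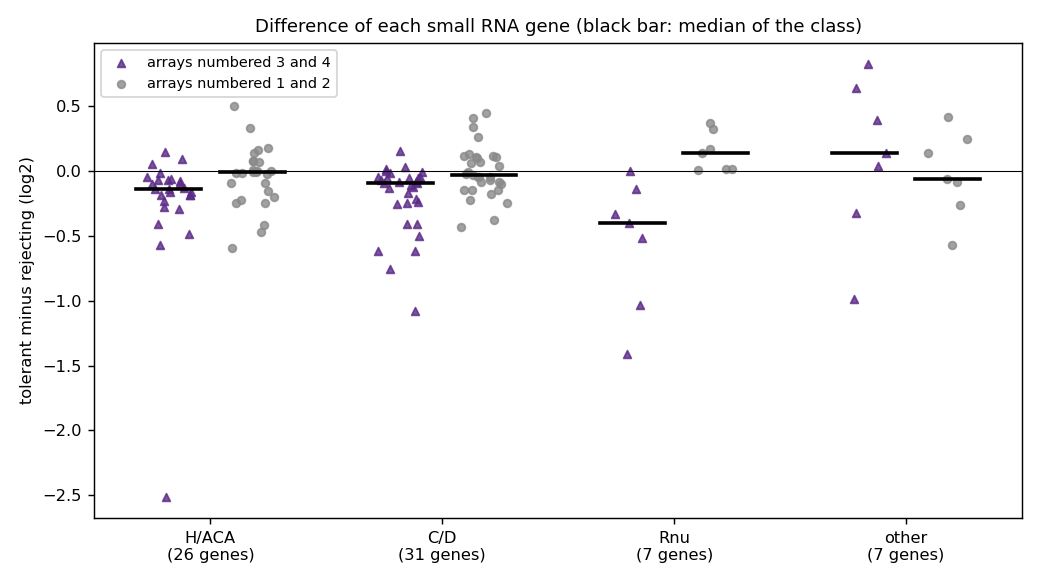
Difference of each of the 71 small RNA genes, tolerant minus rejecting on the log2 scale, by class. Purple triangles are arrays 3 and 4, grey circles arrays 1 and 2, and black bars class medians. Most triangles of the H/ACA, C/D and Rnu classes lie below 0, with Snora52 lowest at -2.51, while the grey points lie on both sides of 0 except in the Rnu class, where all 7 lie above it.

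Among the box H/ACA RNAs the widest difference was that of Snora52, an intron RNA of the ribosomal protein gene Rplp2. Snora52 had 1.74 and 2.41 on tolerant arrays 3 and 4, against 4.85 and 4.32 on rejecting arrays 3 and 4. All 4 values were above the line and the groups did not overlap, with both rejecting arrays high. The difference was -2.51 (SE 0.28, n = 2 arrays each), with limma's adjusted p at 0.0981, and without rejecting array 3 it was -2.25. On arrays 1 and 2 it had 0.64 and 0.91 in tolerant samples, against 1.16 and 0.69 in rejecting samples, all below the line. The test of whether the difference itself differed between the array sets had an adjusted p of 0.0928. Averaging the probe sets of each gene before the limma fit gave Snora52 an adjusted p of 0.0370 on arrays 3 and 4. Its difference stayed at -2.51, since it has a single probe set and only other genes were averaged. No other alternative with 2 arrays a group called it.

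Snora73a and Snora73b are copies of the U17 RNA, a box H/ACA RNA of ribosomal RNA cleavage, and both lie in Snhg3. Snora73a had 1.49 and 1.71 on tolerant arrays 3 and 4, against 2.27 and 1.74 on rejecting arrays 3 and 4, with an adjusted p of 0.714. On arrays 1 and 2 it had 0.94 and 0.92 in tolerant samples, against 1.36 and 1.33 in rejecting samples. In each array set the tolerant values of Snora73a were the lower ones, by 0.41 on arrays 3 and 4 and 0.42 on arrays 1 and 2, although the groups overlapped over all 8 arrays. Without rejecting array 3 the first of these differences was -0.14. Snora73b had 1.14 and 1.54 on tolerant arrays 3 and 4, against 1.84 and 0.98 on rejecting arrays 3 and 4, and overlapped. The copies share much sequence, so probes may read both.

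Snora7a and Snora61 were the other box H/ACA RNAs above the line on all 4 of arrays 3 and 4. Snora7a, in Rpl32, had 2.07 and 2.38 in tolerant samples, against 3.10 and 1.93 in rejecting samples of that set. Snora61, in Snhg12, had 2.36 and 2.15 in tolerant samples, against 2.72 and 2.24 in rejecting samples. Both sets of values overlapped between the groups. Snora36b, in Rab3gap2, went the other way between array sets: it was above the line on arrays 1 and 2, with 1.39 and 1.74 in tolerant samples, against 1.20 and 1.27 in rejecting samples, and below it on arrays 3 and 4.

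**Figure D3:**
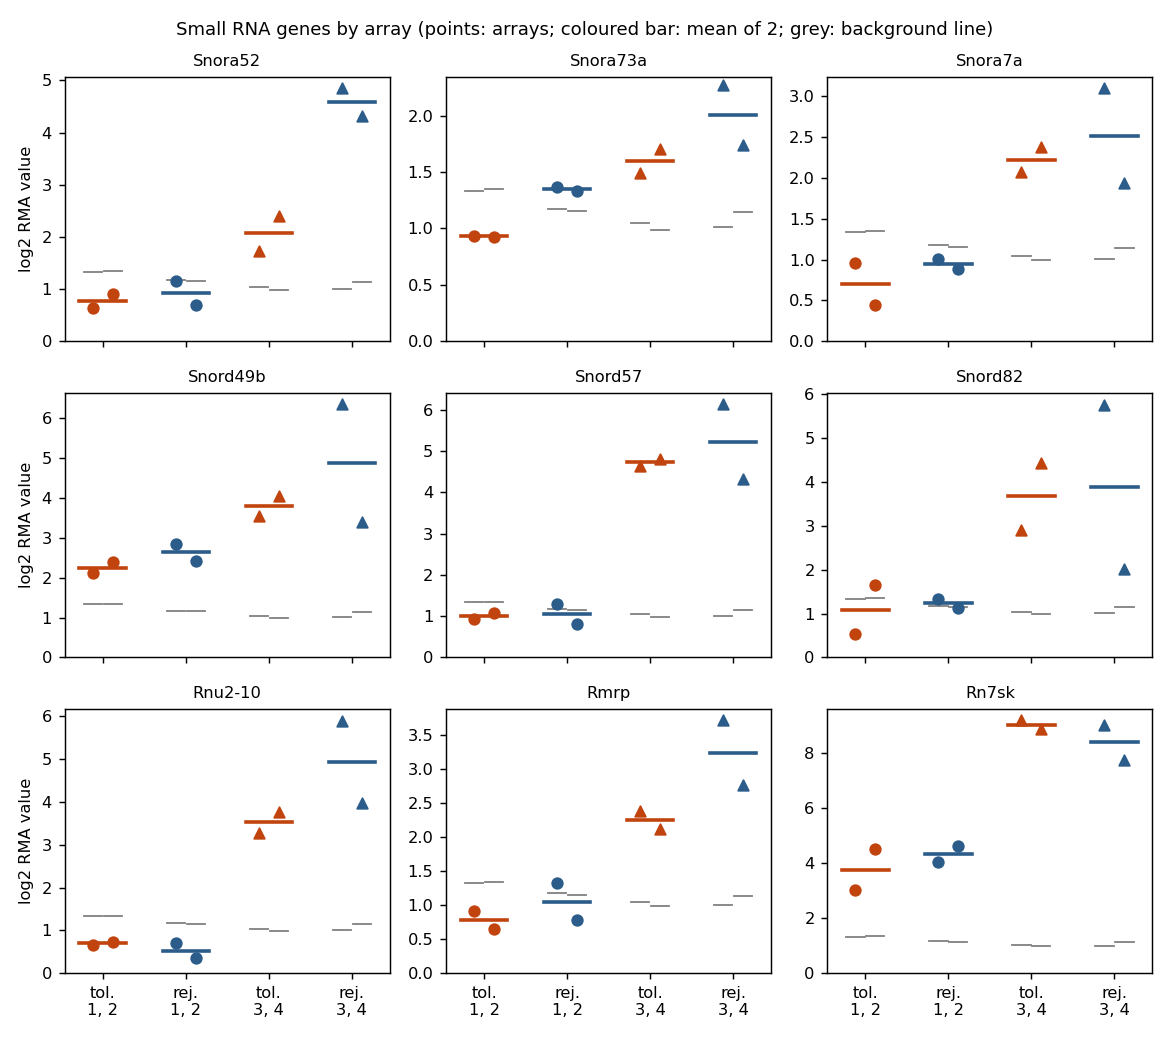
Log2 RMA value of 9 small RNA genes on each array, in panels by gene, tolerant (orange) left of rejecting (blue) within each array set. Circles are arrays 1 and 2, triangles arrays 3 and 4, coloured bars the mean of 2 arrays and grey ticks the background line of the array. Both rejecting triangles of Snora52 exceed both tolerant ones, while for Snord49b, Snord57 and Snord82 the higher rejecting triangle, array 3, stands above all others and the lower one does not.

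Of the 31 box C/D RNAs 14 had their highest value of the 8 arrays on rejecting array 3. Snord49b, which lies in the same transcript as Snord49a, had 3.54 and 4.06 on tolerant arrays 3 and 4, against 6.36 and 3.40 on rejecting arrays 3 and 4. Only the first of the rejecting values was above the tolerant ones. The difference was -1.08 (SE 0.93, adjusted p 0.817 by limma), and without rejecting array 3 it was 0.40. Snord49b on arrays 1 and 2 was still above the line, with 2.11 and 2.39 in tolerant samples, against 2.84 and 2.42 in rejecting samples.

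Snord57 lies in an intron of Nop56, which encodes a core protein of the box C/D particle itself. It had 4.64 and 4.82 on tolerant arrays 3 and 4, against 6.14 and 4.31 on rejecting arrays 3 and 4, and on arrays 1 and 2 it had 0.94 and 1.09 in tolerant samples, against 1.30 and 0.81 in rejecting samples. The groups overlapped in each array set, and the array sets differed by 3.95. Its difference on arrays 3 and 4, -0.50 (SE 0.57), was 0.41 without rejecting array 3 and 0.10 when the arrays were quantile normalised again.

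Snord82 sits in an intron of Ncl, the nucleolin gene. It had 2.92 and 4.43 on tolerant arrays 3 and 4, against 5.76 and 2.01 on rejecting arrays 3 and 4, so that the rejecting values enclosed the tolerant ones. Snord104 had 1.62 and 2.07 in tolerant samples, against 2.45 and 1.21 in rejecting samples of that set, with the same overlap. Snord55 was an exception to the pattern of rejecting array 3, with 1.63 and 1.63 in tolerant samples, against 1.14 and 1.81 in rejecting samples.

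Snord33 and Snord35a are both cut from introns of Rpl13a, and are known in hamster and mouse cells for a part in the response to lipid overload. Snord33 had 0.53 and 1.05 on tolerant arrays 3 and 4, against 2.27 and 0.82 on rejecting arrays 3 and 4. Snord35a had 0.61 and 1.04 in tolerant samples, against 1.93 and 0.95 in rejecting samples. In both, rejecting array 3 was alone in standing clear of the line, and without it the differences were -0.03 for Snord33 and -0.12 for Snord35a. Snord118, the U8 RNA of ribosomal RNA processing, had 0.28 and 0.34 in tolerant samples, against 1.19 and 0.67 in rejecting samples, a difference of -0.62 (SE 0.19, adjusted p 0.571 by limma) with 1 of the 4 values above the line, on rejecting array 3. Without that array the Snord118 difference was -0.36.

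All 7 genes of the Rnu class were lower in the tolerant means of arrays 3 and 4. All 7 were higher in those of arrays 1 and 2, by a median of 0.14, with every value on arrays 1 and 2 below the line. Rnu2-10, a U2 gene, the RNA that pairs with the branch point of introns, had 3.27 and 3.76 on tolerant arrays 3 and 4, against 5.88 and 3.97 on rejecting arrays 3 and 4. The groups did not overlap, though rejecting array 4 was only a little above tolerant array 4. The difference was -1.41 (SE 0.61, adjusted p 0.698 by limma), and without rejecting array 3 it was -0.46. The 11 probe sets of this gene gave 6 distinct patterns of values, since U2 copies are near-identical, and their differences ran between -1.60 and -1.11. Rnu2-10 on arrays 1 and 2 was below the line in both groups, with 0.66 and 0.73 in tolerant samples, against 0.70 and 0.35 in rejecting samples.

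The U1 probe sets list Rnu1b1, Rnu1b2 and Rnu1b6 together, so no single gene can be named. The brightest had 1.21 and 1.08 on tolerant arrays 3 and 4, against 1.70 and 1.25 on rejecting arrays 3 and 4, close to the line though without overlap, and the difference of -0.33 was -0.11 without rejecting array 3. The U3b probe sets list Rnu3b1 to Rnu3b4 and held identical values, 1.39 and 1.69 in tolerant samples, against 3.52 and 1.63 in rejecting samples of that set. Their difference of -1.03 was -0.09 without rejecting array 3. Rnu12, the branch point RNA of the minor spliceosome, had 0.73 and 0.71 in tolerant samples, against 1.28 and 1.20 in rejecting samples. Only the rejecting values of Rnu12 were above the line, and its difference was -0.51 (SE 0.10, adjusted p 0.287 by limma), or -0.47 without rejecting array 3. Rnu3a, Rnu5g and Rnu7 were below the line on every array.

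Among the remaining RNAs, Rmrp was lower and Rn7sk and Rny3 were higher in the tolerant means of arrays 3 and 4. Rmrp had 2.39 and 2.13 in tolerant samples, against 3.73 and 2.76 in rejecting samples. The groups did not overlap, and the difference was -0.99 (SE 0.32, adjusted p 0.599 by limma), or -0.50 without rejecting array 3. Rn7sk had 9.17 and 8.85 in tolerant samples, against 9.02 and 7.73 in rejecting samples, with overlap and a difference of 0.64, or 1.28 without rejecting array 3. It differed between array sets more than any other member, by 4.65, with 3.02 and 4.49 on tolerant arrays 1 and 2, against 4.03 and 4.62 on rejecting arrays 1 and 2.

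The other probe set of Rn7sk had 9.33 and 9.51 on tolerant arrays 3 and 4, against 8.15 and 7.62 on rejecting arrays 3 and 4, without overlap, so the 2 probe sets disagreed in size, by 1.54 against 0.64. Rny3 had 2.72 and 3.49 on tolerant arrays 3 and 4, against 2.93 and 1.64 on rejecting arrays 3 and 4, a difference of 0.82 (SE 0.47, adjusted p 0.746 by limma). Without rejecting array 3 it was 1.47, and without rejecting array 4 it was 0.18. Rny1, the other Y RNA, reached 1.55 on rejecting array 3 and was below the line on the other 7 arrays. Scarna17, an RNA of Cajal bodies, had 0.94 and 1.12 in tolerant samples, against 0.72 and 0.55 in rejecting samples, without overlap and with 1 of the 4 values above the line.

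**Figure D4:**
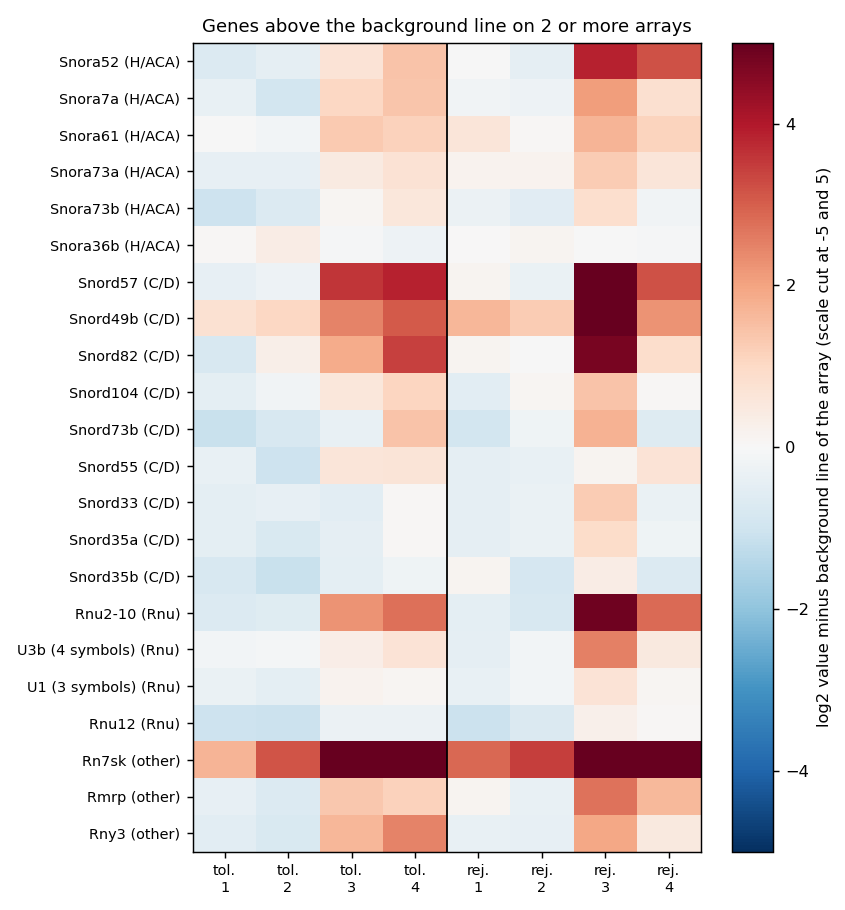
Log2 value minus the background line of the array for the 22 small RNA genes above the line on at least 2 of 8 arrays, tolerant arrays left of rejecting arrays, by class. Red is above the line and blue below, and the colour scale is cut at 5. Columns of arrays 1 and 2 are pale except for a few genes such as Rn7sk, and the column of rejecting array 3 is the darkest for most box C/D and Rnu genes.

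On arrays 1 and 2 the direction varied with the class of small RNA. Lower in tolerant samples were 17 of 26 box H/ACA, 18 of 31 box C/D, 0 of 7 Rnu and 4 of 7 other genes. No Rnu gene was above the line on any of these arrays. Of the 20 members above the line on at least 2 of arrays 3 and 4, 14 were lower on arrays 1 and 2. None of the 71 genes passed the test (0 of 71, with 0% of all genes called), and 39 were lower in tolerant samples (50.5% of all genes), with a median difference of -0.01. An unadjusted p under 0.05 was seen for 5, Snord73a, Snora41, Snora73a, Snora75 and Scarna13 (5.22% of all genes). Only 6 of the 71 were above the line on at least 2 of these 4 arrays (3.69% of all genes). The test of a difference between the array sets called 0 of the 71 (0.0647% of all genes), and 8 had an unadjusted p under 0.05 (7.25% of all genes). Leaving out rejecting array 4 leaves rejecting array 3 alone in its set. The differences on arrays 3 and 4 were then -2.36 for Rnu2-10, -1.98 for the U3b genes, -1.33 for Snora44, -2.78 for Snora52 and -2.56 for Snord49b. Without rejecting array 3 instead, they were -0.46, -0.09, 0.18, -2.25 and 0.40 in the same order. Without tolerant array 2 it called 1, of Rn7sk, with 0.026% of all probe sets called.

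Most members lie inside another gene. Of 68 members with a single symbol, 59 fall within the span of another gene in the gene table, 43 in protein-coding genes and 16 in genes for long RNAs that code for no protein. Ribosomal protein genes hold 20 of them, and Gas5 or Snhg genes 10. The surrounding gene was measured for 36 members, through 31 genes. Each was read from its brightest probe set, and whether that probe set lies beside the small RNA was not checked. Probe set numbers were close for some pairs, such as Snord57 and Nop56. They were far apart for others, such as Snora31 and Tpt1 or Snora33 and Rps12. A pair may thus not join a small RNA with the gene at its own place. The median difference of these genes on arrays 3 and 4 was 0.0006, and the lowest adjusted p by limma was 0.446, for Rps12. Across the 36 pairs, the differences of the small RNA and of its surrounding gene had a Pearson correlation of 0.09 and a Spearman correlation of 0.11, a description in which all pairs share the same 4 arrays.

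A small RNA could be below the line where the gene around it was above, with that gene read from its brightest probe set, whose position was not checked. Of the 13 members whose surrounding gene was above the line on all 4 of arrays 3 and 4, 2 were above it on at least 2 of these arrays, Snord33 and Snord35a in Rpl13a, and 10 were above it on none. For pairs with probe set numbers far apart, these counts may not compare a small RNA with the gene at its own place. Rplp2, around Snora52, was itself below the line on all 4, with 0.77 and 0.50 in tolerant samples, against 0.79 and 1.03 in rejecting samples. Members of the same surrounding gene also differed. In Ncl, Snord82 was above the line on all 4 of these arrays and Snora75 on none. In Snhg12, Snora61 was above it on 4, Snora44 on 1 and Snora16a on none. Of the 9 members outside other genes, 5 were above the line on at least 2 of arrays 3 and 4, and of the 59 within genes 13 were.

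**Figure D5:**
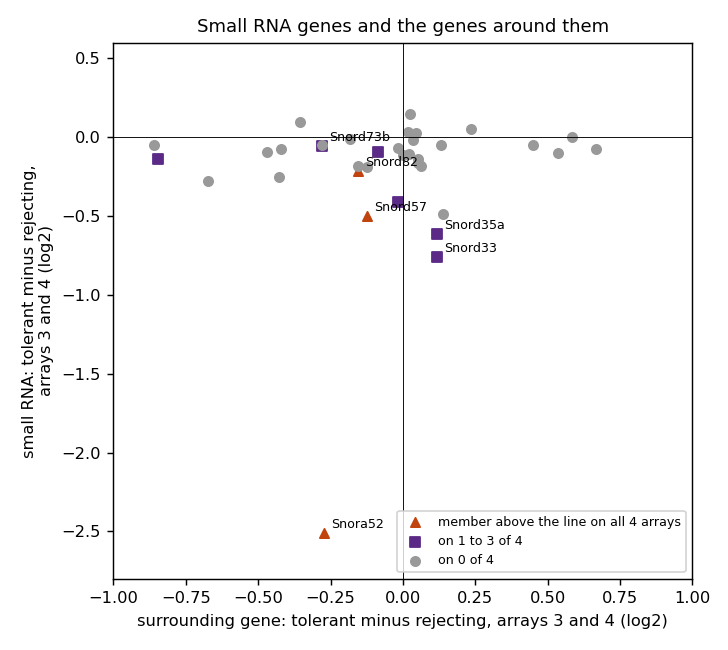
Difference, tolerant minus rejecting on arrays 3 and 4 on the log2 scale, of 36 small RNAs against that of the gene around each. The gene around is given by its brightest probe set, whose position was not checked. Orange triangles are small RNAs above the background line on all 4 arrays, purple squares on 1 to 3 and grey circles on none. Snora52 lies at -2.51 while its surrounding gene Rplp2 lies at -0.27.

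Genes for the proteins that bind, build or transcribe these RNAs were measured on the same arrays, in lists that were drawn up with earlier results known. None of their members passed the test on arrays 3 and 4. Of the 4 core proteins of box C/D particles 2 were higher and 2 lower in tolerant samples. Fbl, the methylating enzyme of the particle, had 2.41 and 2.09 in tolerant samples, against 1.63 and 2.35 in rejecting samples. All 6 proteins of box H/ACA particles or their assembly were lower (52.3% of all genes), with a median of -0.15, though 3 were below the line on every array. Nop10, a core protein of that particle, had 0.94 and 0.88 in tolerant samples, against 1.38 and 1.36 in rejecting samples. Its adjusted p was 0.365 by limma, and only the rejecting values were above the line.

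Among 19 proteins of spliceosomal particles 6 were higher and 13 lower, with a median of -0.07. Snrpc, a U1 protein, had 1.95 and 1.57 in tolerant samples, against 2.30 and 2.66 in rejecting samples, a difference of -0.72 (adjusted p 0.479 by limma). Prpf8, the large protein at the centre of the spliceosome, had 1.34 and 0.99 in tolerant samples, against 0.63 and 0.64 in rejecting samples. Assembly factors of both particle kinds (3 of 6 higher), the SMN complex that loads U RNAs with Sm proteins (4 of 8) and RNase P and MRP proteins (4 of 10) were mixed. Of 19 genes for transcription and trimming of U RNAs 12 were higher, and of 5 proteins of 7SK and Y RNAs 4 were higher. These last lists had few members above the line on at least 2 of the 4 arrays. The counts were 1 of 6 assembly factors, 1 of 8 SMN complex genes and 0 of 10 RNase P and MRP proteins. They were 2 of 19 for the transcription genes and 0 of 5 for the proteins of 7SK and Y RNAs.

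A list of genes known to harbour small nucleolar RNAs had 8 of 23 measured members higher and 15 lower on arrays 3 and 4, with a median of -0.10. Each gene is given by its brightest probe set, whose position was not checked and which may lie away from the small RNA. Rpsa, a ribosomal protein gene, had 1.48 and 1.58 in tolerant samples, against 2.06 and 2.69 in rejecting samples. Rpl27a had 1.82 and 2.41 in tolerant samples, against 2.82 and 2.76 in rejecting samples. Both were above the line on all 4 arrays and without overlap, and had adjusted p values of 0.461 and 0.579 by limma. Rps12 was likewise lower without overlap, with 1.86 and 1.65 in tolerant samples, against 2.23 and 2.21 in rejecting samples. Tpt1, the gene of the translationally controlled tumour protein, was higher without overlap and above the line on all 4, with 3.77 and 3.78 in tolerant samples, against 3.03 and 3.63 in rejecting samples, a difference of 0.45 (adjusted p 0.705 by limma). In all, 1 of the 23 was higher and 5 lower without overlap, where 19.3% and 20.5% of all genes were.

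Markers of kidney tubule, fibroblasts and macrophages were mostly higher in tolerant samples on arrays 3 and 4, where 47.7% of all genes were. Kidney tubule markers were higher in tolerant samples for 13 of 14, their summed log2 values being 27.4 and 21.4 on tolerant arrays 3 and 4, against 10.4 and 10.7 on rejecting arrays 3 and 4. Slc12a3 and Calb1 of that list were the only markers of any list to pass the test, with adjusted p values of 0.0287 and 0.0355 by limma. Fibroblast markers were higher for 11 of 11, with sums of 20.5 and 20.3 in tolerant samples, against 14.4 and 12.4 in rejecting samples, and macrophage markers for 9 of 12, with 15.2 and 17.3 in tolerant samples, against 10.97 and 6.29 in rejecting samples.

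T cell markers were higher for 8 of 10 as well, with sums of 10.4 and 13.6 in tolerant samples, against 8.60 and 10.3 in rejecting samples. Endothelial markers were higher for 4 of 7, with sums of 7.21 and 5.68 in tolerant samples, against 5.52 and 4.67 in rejecting samples. Both measured red blood cell markers were higher, with sums of 3.09 and 1.60 in tolerant samples, against 1.5 and 1.23 in rejecting samples. B cell markers were higher for 3 of 7, and Cd79a, Cd79b, Ms4a1 and Pax5 were below the line on all 4 of arrays 3 and 4. The part of these cell types in the lower small RNA values of tolerant samples was not tested.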

How the data were processed

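RNA extracted on columns was labelled with biotin by a whole-transcript assay, per the labels' protocols. The deposited table, from the authors' Affymetrix Expression Console and its RMA method per the submitters' processing notes, holds log2 values of 35556 probe sets on 8 arrays. RMA corrects background, quantile normalises the arrays and summarises the probes. Not given in the sources used here are software versions, the base of the logarithm and the build of the array design. Base 2 was taken because the highest value on each array was between 12.6 and 12.7. The number of arrays limits the precision.

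Gene names came from the platform annotation, updated to the GRCm38.p6 gene table. All 68 members with 1 symbol matched it, and it was used only for names and for which genes lie around each other, without strand. A probe set counts as a member only if all its symbols match, so 13 probe sets shared with another gene were left out. Where a gene had several probe sets, as 13 members did, the one with the highest mean over 8 arrays represented it. Values of 7 of these 13 were identical across their probe sets, and the 102 member probe sets held 82 distinct patterns.

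Tests were limma's moderated linear fits (lmFit and eBayes), 2-sided, tolerant minus rejecting, over 23099 probe sets with a listed symbol, with Benjamini-Hochberg adjustment and a threshold of 0.05. Fits used all 8 arrays, arrays 3 and 4, arrays 1 and 2, and the interaction of group and array set, and were tested on simulated data. Where leaving out an array leaves 1 in a group, that array is assumed to vary like the others. The table used here has no detection calls, so the background line described in the report stands in for them. R 4.3.3, limma 3.58.1, Python 3.11.15, pandas 2.3.3 and matplotlib 3.10.9 were used.

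Members named with their values were, per class, the 4 with the highest mean, those with the widest differences on each array set among genes above the line, those with the smallest p over 8 arrays, and a fixed list that included Snora52, Snora73a, Snora73b, Rmrp, Rn7sk, Rny1, Rny3, Rnu12 and Rnu7. Of each protein list up to 3 genes were eligible. The U1 and U3b units, Snord118, Snora41, Snora44, Snord73b and members of a shared surrounding gene were named after their values were seen, as were Snora16a and Tpt1. The members and all lists were chosen with earlier results of these data known.

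Same-numbered arrays of the groups were checked for pairing: their deviations from the group means correlated by 0.551, 0.560, 0.467 and 0.644 for numbers 1 to 4, above the bound of 0.1. Arrays of unlike number in the same set correlated by 0.552, 0.540, 0.465 and 0.603, so the shared deviation is that of the array sets. This check used the values, and the labels name no pairing by number. Alternatives were other normalizations, filters and feature sets, robust moderation with a trend, blocks for replicate number and array set, averaging over the probe sets of a gene, a background line at the 95th percentile and leaving out each array.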

Additional observations from a re-analysis of the deposited data

Results flagged for a closer look

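Within each group of 4 arrays, the values of 31 named small RNA genes were searched for a single array far from the others, by a gap to the nearest value, as a share of the group's range, above Dixon's critical value for 4. Of 62 groups 5 met this. The nominal rate of 1 in 20 does not apply here, since some genes were named for wide differences and all groups share 8 arrays. In rejecting samples Snord33 was 2.27 on array 3, against 0.71 to 0.82 on the others, and Rny1 was 1.55 on array 3, against 0.41 to 0.48. Snord58b, below the line on every array, was -0.0141 on rejecting array 3, against 0.24 to 0.28. In tolerant samples Rnu3a was 0.81 on array 1, against 0.15 to 0.19, also below the line, and Scarna13 was 1.32 on array 3, against 0.70 to 0.73. Rejecting array 3 accounts for 3 of the 5.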

How the results depend on the processing

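No small RNA gene was called over 8 arrays or on arrays 1 and 2 under any alternative. On arrays 3 and 4 averaging a gene's probe sets called 1, Snora52, which has a single probe set and stayed at -2.51. The other alternatives with 2 arrays a group called none. With replicate number as a block, no member was called over 8 arrays, on arrays 3 and 4 or on arrays 1 and 2. The block thus changed no call of a member in the main fits. All probe sets called on arrays 3 and 4 numbered 51 with the block and 21 without. That count was 5 with quantile normalization again, 5 with cyclic loess, 10 with trend and robust moderation, 11 with single symbols only, 56 with averaged probe sets, and 0 with all probe sets, with dim probe sets left out or with any array left out. On arrays 1 and 2 it was 0, with 2 under the block and 2 without tolerant array 2. For the interaction it was 15, and 0, 0 and 6 with quantile normalization, all probe sets and trend. Leaving out arrays gave 0 to 14 member probe sets for the interaction, the 1 without tolerant array 2 and the 14 without rejecting array 4. Filtering on the background line, which keeps fewer genes, moved the median differences of members to -0.26 over 8 arrays, -0.37 on arrays 3 and 4 and -0.30 on arrays 1 and 2. With the line at the 95th percentile 36 members were above it on at least 2 arrays, against 22. Snord57 on arrays 3 and 4 turned to 0.10 with quantile normalization again. Leaving out arrays moved the differences of Rnu2-10 over 8 arrays between -1.41 and 0.43, and, on arrays 3 and 4, of Snord49b between -2.56 and 0.40, of Snord57 between -1.41 and 0.41 and of Rn7sk between -0.012 and 1.28. Leaving out arrays of these counts was chosen after seeing the data: members lower in tolerant samples on arrays 3 and 4 numbered 42 to 60, those lower without overlap 31 to 49 against 21, those at -1 or below 1 to 11 against 4, and those higher by 1 on arrays 3 and 4 than on arrays 1 and 2 9 to 13 against 11. The cause of these moves was not tested. Signal near background on arrays 1 and 2, and 2 arrays a group on arrays 3 and 4, limit what can be detected.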
